A study of Saccharomyces cerevisiae with 32 samples.

Results

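The 47 genes described here encode assembly and export factors of the large (60S) subunit of the cytosolic ribosome in the budding yeast Saccharomyces cerevisiae. They were taken by gene symbol from the array annotation. All 47 of 47 symbols were found among the 5449 genes with a probe set, each had 1 probe set matching no other gene, and all 47 passed the filter on low signal that left 5377 genes for testing. The rule uses gene names alone and no measured value, although the members were chosen with earlier results of these data known.

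The samples came from 1 continuous culture of CEN.PK113-7D, a MATa laboratory strain, grown on glucose medium at 30 °C and pH 4 with a dilution rate of 0.06 to 0.086 per h. Dissolved oxygen in this culture oscillated with a period of about 2 h. Pellets of 0.5 ml were frozen every 4 min, and the total RNA of each of 32 samples was hybridised to 1 Affymetrix array. All samples belong to 1 group of 1 genotype with no treatment, and the compared quantity is the phase angle that the labels give each sample. The angle advanced by 12.5° per sample, so a turn of 360° took 115 min. The series therefore covers 1 cycle and the start of the next, with no replicate culture, and every p-value rests on the scatter of single samples about a fitted level. The sources used here do not give the position of 0° in the oxygen cycle.

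The large ribosomal subunit is built around a long precursor RNA that is folded, modified and cut in the nucleolus, then matured in the nucleoplasm, exported and finished in the cytoplasm. Assembly factors bind the growing particle, hold sites closed, drive its remodelling or carry it through the nuclear pore, and then leave it for use on the next particle. In yeast their genes are known to be transcribed together with other ribosome biogenesis genes when growth conditions are good. The 47 factors are taken below in 5 role groups, set only roughly from early to late steps. Single members, such as TIF6, leave the particle later than the place of their group. The groups hold 15 factors of early nucleolar modules, 11 of the particle's foot, internal spacer and 5S RNA, and 10 methyltransferases, placeholders and other nucleolar factors. A further 7 belong to nucleoplasmic remodelling, and 4 to export and cytoplasmic maturation.

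Array quality bore on every value. S. cerevisiae probe sets had a median signal of 1436 to 2340.1 in array units on the 32 arrays. Probe sets of fission yeast (S. pombe), with any not matched to S. cerevisiae, served as background. Their medians on the same arrays were 5.4 to 9.8. Mating type markers followed the MATa label in part: MFA1, MFA2, STE2 and BAR1 had mean deposited signals of 4592 to 10769, whereas those of the MATalpha genes MF(ALPHA)1, MF(ALPHA)2, STE3 and SAG1 were between 77.5 and 1172, above background. The mean log2 signal of 21 poly-A control probe sets lay between 7.33 and 8.88. Its 5 lowest arrays were the consecutive samples from 34.3° to 84.2°, the stretch where the assembly factors were high and then began to fall; Pearson's r between the control signal and the mean profile of the 47 genes was -0.43 over 32 serially related samples. The part of this in the profiles was not tested, and values with other scalings or without these 5 samples are given below. Equal amounts of labelled RNA were put on each array, so levels are relative to all transcripts, and a change in RNA per cell cannot be told apart from a change in the mix of cells.

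All 47 transcripts varied with phase and were high together from about 20° to 60°, low from about 109° to 146°, and high again at the end of the series. Between these, from 221.3° to 283.6°, the genes other than TIF6 stood at an intermediate plateau; TIF6 stayed near its minimum there. Averaged over the 47 genes, the log2 level relative to each gene's own mean was 1.04 at 356.9°, reached 1.96 at 34.3° and was 1.93 at 46.8°. It then dropped to 0.94 at 71.7°, -0.17 at 84.2° and -1.25 at 96.6°, with the lowest value, -2.23, at 134.03°. The mean profile was at -1.03 by 183.9°, rose slowly from -0.46 at 221.3° to -0.26 at 283.6°, and was 1.85 in the last sample at 23.8°. The course was thus a fast fall, a partial recovery, a slow rise over the 6 samples called the plateau here, and a later, steeper rise.

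**Figure D1:**
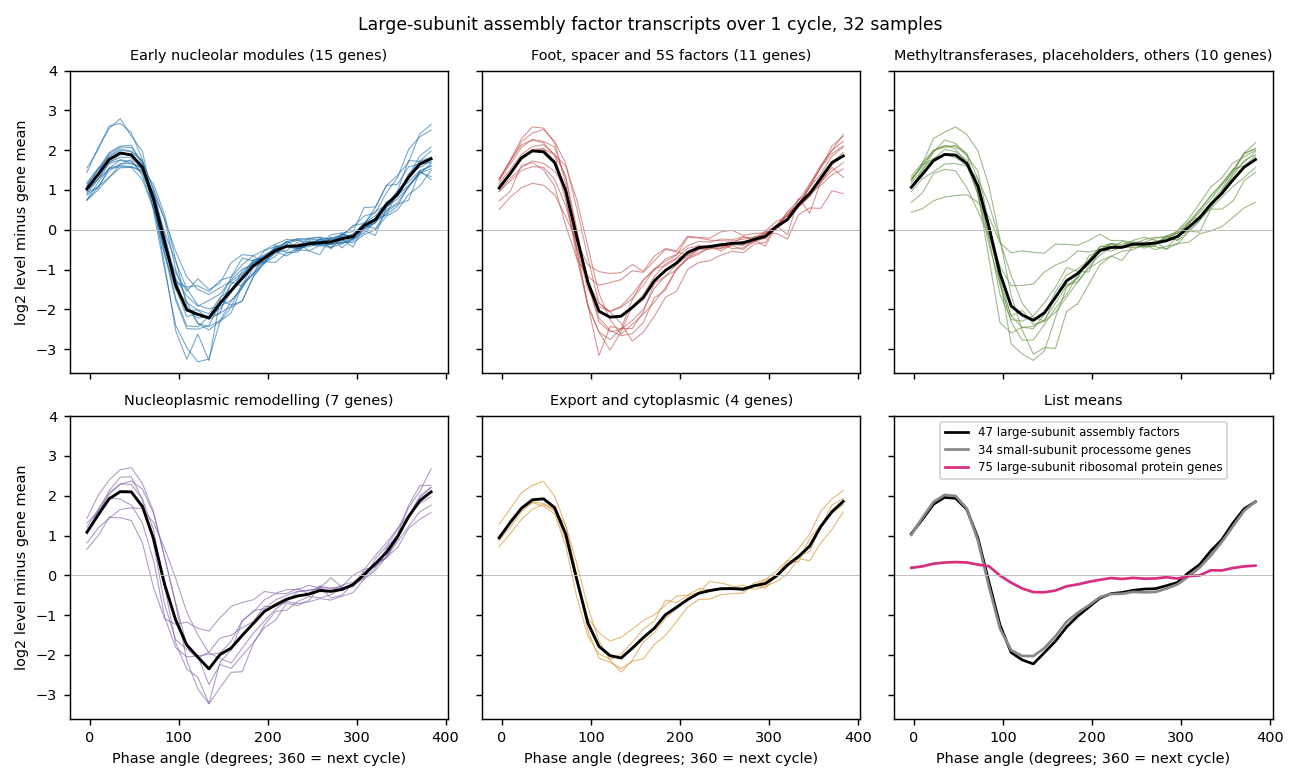
Log2 level minus each gene's mean (y axis) against phase angle in degrees (x axis, values above 360 belong to the next cycle) for the 32 samples. Thin coloured lines are single genes of the 5 role groups and the black line is their mean; the last panel sets the mean of the 47 genes (lowest -2.23 at 134.03°) beside the means of the small-subunit processome and large-subunit ribosomal protein genes. In every role group the lines are high near 34°, drop between 60° and 109° and flatten near 221.3°.

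The size of the swing was measured in 2 ways. The highest over lowest signal among the 32 samples had a median of 20.6-fold for the 47 genes (2.77-fold for TIF6 to 69.9-fold for MAK16), against 2.18-fold for all genes tested. The fitted range, the log2 distance between the top and bottom of a cosine curve of phase, had a median of 3.03 (1.06 to 4.23, with standard errors of 0.15 to 0.49, n = 32 samples), against 0.63 for all genes. Limma called 47 of 47 for the cosine curve (Benjamini-Hochberg adjusted p from 3.91e-10 to 1.49e-06), where 91.3% of all genes were called, so the call alone sets the factors apart from few other genes. All 47 had a range of at least 2-fold, as did 29.6% of all genes. A range of at least 4-fold was found for 44 (9.15% of all genes), and of at least 8-fold for 24 (2.6% of all genes).

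The fitted peaks lay between 349° and 28.7°, and all 47 were within 45° of 0°, where 27.7% of all genes were called with a peak. With poly-A scaling 46 were, and TIF6 peaked at 45.7°. Both a peak there and a range of at least 2-fold were found for 47, against 12.1% of all genes. One cosine described the profiles only in part, with a median share of variance of 0.694, and adding the second harmonic raised it to 0.952. The second harmonic was called by limma in 47 of 47 (83.9% of all genes), and the maxima of the fuller curves lay between 16° and 37° with a median of 26°. The highest sample was at 34.3° for 23 genes, at 46.8° for 18, at 23.8° for 5 and at 59.2° for TIF6. The lowest sample was at 109° for 7 genes, at 122° for 17, at 134.03° for 19, at 146° for 3 and at 159° for NUG1.

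Neighbouring samples resemble each other, which makes p-values from independent errors too small. Whitening with the median lag-1 autocorrelation of 0.659 left limma calls for 47 of 47 genes (67.6% of all genes). A coefficient corrected for its bias in short series was 0.98 with 1 harmonic, the upper end of the values tried and so not a free estimate. It left 8 (5.99% of all genes): RPF1, NOP7, ERB1, NOP2, RIX1, SDA1, NUG1 and ARX1. With both harmonics the corrected coefficient was 0.87 and 47 were called (53.9% of all genes).

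**Figure D2:**
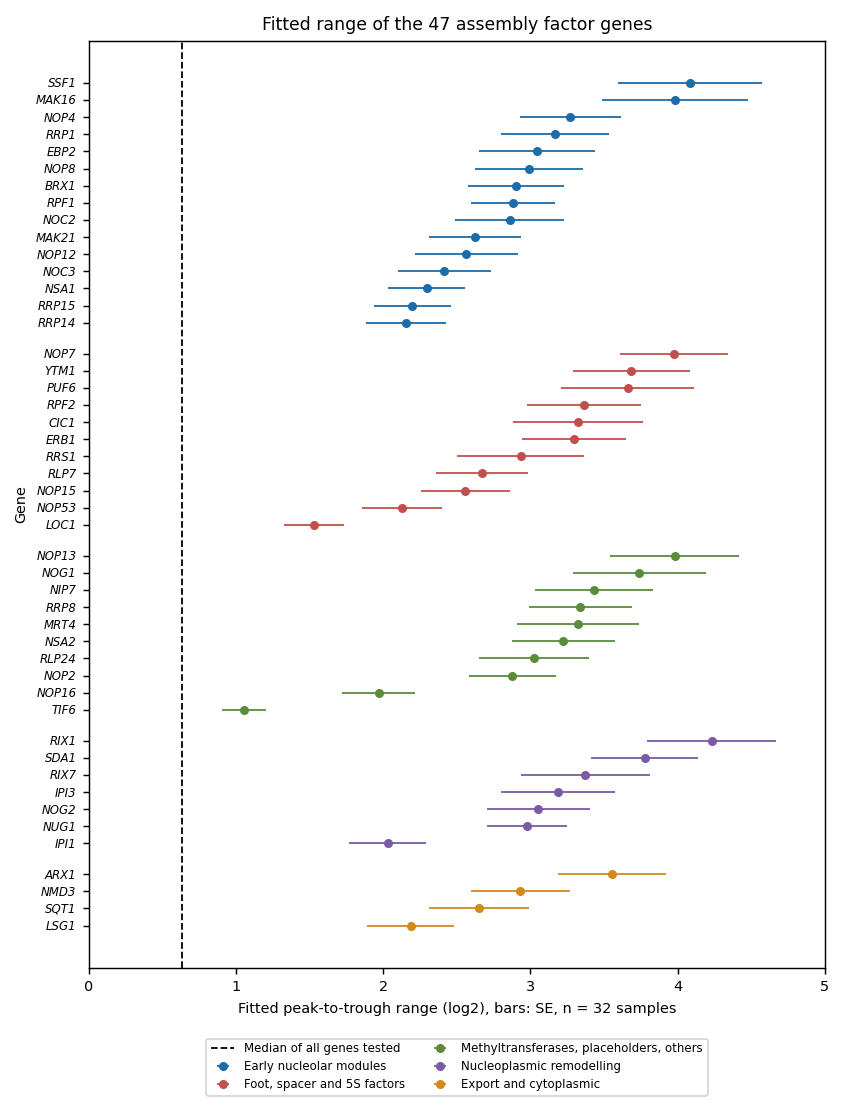
Fitted peak-to-trough range on the log2 scale (x axis) of each of the 47 genes (y axis), ordered by role and range; points are estimates from 32 samples and bars are standard errors. Every point lies to the right of the dashed line, the median of all genes tested at 0.63, with TIF6 at 1.06 the closest to it and RIX1 at 4.23 the farthest.

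The 15 early nucleolar factors build the first domains of the particle. Their fitted ranges had a median of 2.88 and ran from 2.15 to 4.08, and 5 of 15 reached 8-fold. SSF1 (YHR066W), a Brix-domain protein of the early domains, had signals with a lowest value of 53.7, a median of 492 and a highest value of 3532, a range of 4.08 ± 0.49 (SE) and a highest over lowest ratio of 65.8-fold. MAK16 (YAL025C), of the module with NSA1, RPF1 and RRP1, spanned 53.7 to 3756 with a median of 432 and had a ratio of 69.9-fold and a range of 3.98 ± 0.49. The lowest values of both genes were tied by the quantile scaling. In the deposited values the ratio was 82.5-fold for SSF1 and 66.9-fold for MAK16, so the order of these genes depended on the scaling. NOP4 (YPL043W), an RNA-binding protein needed for the early precursor, spanned 403 to 8322 with a median of 2034 and a range of 3.27 ± 0.34. The smallest range of this group was that of RRP14 (YKL082C), a partner of SSF1, which spanned 539 to 5325 with a median of 1271 and a range of 2.15 ± 0.27. In each of these genes the highest sample was at 34.3° or 46.8° and the lowest between 109° and 134.03°.

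Any of the 47 profiles resembled the mean of the others, with a median Pearson's r of 0.989, so the likeness within modules is not particular to them. Swings within a module differed in size. In the SSF1 module the ranges were 4.08 for SSF1, 2.15 for RRP14 and 2.20 for RRP15, while Pearson's r between their profiles over the 32 samples was 0.963 to 0.988. The NSA1 module had 2.30 for NSA1, 2.88 for RPF1, 3.17 for RRP1 and 3.98 for MAK16, with r of 0.945 to 0.994. The NOC proteins, which escort early particles, were closer in size, with 2.62 for MAK21, 2.86 for NOC2 and 2.42 for NOC3 and r of 0.99 to 0.995. BRX1 and EBP2, which bind each other, had 2.90 and 3.04 with r of 0.965. These correlations are descriptions, since all profiles come from the same 32 arrays and follow the same cycle. NOP8, a nucleolar factor, and NOP12, an RNA-binding protein, completed the group at 2.99 and 2.56.

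The 11 factors of the foot, the internal spacer and the 5S RNA had a median range of 3.30, from 1.53 to 3.97, and 6 of 11 reached 8-fold. NOP7 (YGR103W), which with ERB1 and YTM1 forms a complex needed to process the spacer, had a lowest signal of 172, a median of 952 and a highest of 6945, with a range of 3.97 ± 0.37. YTM1 (YOR272W), pulled off the particle later by an AAA-type ATPase, spanned 223 to 6904 with a median of 1261 and a range of 3.69 ± 0.40. PUF6 (YDR496C), a Pumilio-family protein also known for repressing ASH1 messenger RNA, spanned 196 to 8036 with a median of 1076, a range of 3.66 ± 0.45 and a log2 change of -1.67 in the 4 min after 71.7°. LOC1 (YFR001W), its partner in ASH1 messenger localization, spanned only 798 to 3850 with a median of 1604 and a range of 1.53 ± 0.20. The profiles of PUF6 and LOC1 were similar in shape, with r of 0.985.

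Of the others in this group, RPF2 and RRS1, which bring the 5S particle to the subunit, had ranges of 3.36 and 2.93 with r of 0.974. CIC1 and NOP15, both spacer-binding proteins, had 3.32 and 2.56, and ERB1 had 3.30. RLP7, a spacer-bound protein related to the ribosomal protein RPL7, had 2.67. NOP53 (YPL146C), which recruits the exosome's helicase for trimming of the spacer, spanned 474 to 4047 with a median of 1015 and a range of 2.13 ± 0.27.

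Among the 10 methyltransferases, placeholders and other nucleolar factors the median range was 3.27, and 7 of 10 reached 8-fold. NOP13 (YNL175C), a nucleolar RNA-binding protein, spanned 147 to 7780 with a range of 3.98 ± 0.44. NOG1 (YPL093W), a GTPase of the nucleolar particle, spanned 231 to 9851 with a median of 2116 and a range of 3.74 ± 0.45. NIP7 (YPL211W), which pairs with the RNA methyltransferase NOP2, spanned 314.96 to 9381 with a median of 1991 and a range of 3.43 ± 0.40. All 3 genes had their lowest sample at 122° or 134.03°.

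TIF6 (YPR016C) had the smallest swing of the 47 genes. The protein keeps the large subunit from joining the small subunit and is released in the cytoplasm as one of the last steps. Its signal was 2944 at the lowest, 3666 at the median and 8161 at the highest, a 2.77-fold span, and its range was 1.06 ± 0.15 with a limma adjusted p of 7.49e-07. With poly-A scaling the range of TIF6 was 1.66, still the smallest of the 47. TIF6 also had the latest fitted peak, 28.7°, and the lowest correlation with the mean of the other 46 genes, 0.907, where the median gene had 0.989. Its level stayed close to its minimum through the plateau: the 6 samples from 221.3° to 283.6° lay at 16.6% of its own log2 span, against a median of 45.2% for the 47 genes. NOP16, at 1.97 ± 0.25, and LOC1 were the other two genes under 4-fold, and the remaining members of this group, RRP8, MRT4, NSA2, RLP24 and NOP2, lay between 2.88 and 3.34. Of these RRP8 and NOP2 modify bases of the ribosomal RNA, NSA2 is a nucleolar factor, and MRT4 and RLP24 hold the places of ribosomal proteins.

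The 7 nucleoplasmic factors, which remodel the particle before export, had a median range of 3.19 and 5 of 7 reached 8-fold. RIX1 (YHR197W) had the largest range of all 47 genes, 4.23 ± 0.44, and its signal ran from 68.3 through a median of 535 to 4285, a 62.8-fold span. Its protein forms a complex with IPI1 and IPI3 that takes part in spacer processing and docks a giant ATPase on the particle. IPI1 (YHR085W) spanned 406 to 3209 with a range of 2.03 ± 0.26, the smallest of the group, and IPI3 had 3.19 ± 0.39. The profiles of the 3 subunit genes had r of 0.903 to 0.966. SDA1 (YGR245C), a nucleoplasmic factor, had 3.78 ± 0.36, and RIX7 (YLL034C), the ATPase that strips NSA1 from the particle, had 3.37 ± 0.44. The GTPases NOG2 and NUG1 had 3.05 and 2.98.

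The 4 export and cytoplasmic factors had a median range of 2.79. ARX1 (YDR101C), an export factor that shields the tunnel exit, spanned 351 to 9244 with a median of 1478 and a range of 3.56 ± 0.37. NMD3 (YHR170W), the adaptor for the export receptor CRM1, spanned 399 to 8250 with a range of 2.93 ± 0.34. SQT1 (YIR012W), the chaperone of ribosomal protein RPL10, had 2.65 ± 0.34 and LSG1 (YGL099W), the cytoplasmic GTPase that helps release NMD3, had 2.19 ± 0.30. The export and cytoplasmic group was thus high in the same samples as the early nucleolar group. The midpoint of the fall is the phase at which a gene passed the middle of its log2 span. Its median was 82.1° for the early nucleolar genes and 82.7° for the export and cytoplasmic genes, a gap under the sample spacing of 12.5°. TIF6, also released in the cytoplasm, is not in this group.

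The steepest part of the cycle was compared directly, with the 4 samples from 46.8° to 84.2° against the next 4 from 96.6° to 134.03°. All 47 genes were lower in the later window by limma (adjusted p up to 0.00011), as were 34.7% of all genes. The 4 samples of a window are consecutive samples of 1 culture and not replicates. The window tests were not whitened, so the limit given above for neighbouring samples holds for these p-values. The median log2 difference was -3.08, from -4.04 for NOG1 to -1.19 for TIF6, with standard errors of 0.12 to 0.45, against a median of 0.05 for all genes. The 5 arrays of low poly-A control signal include all 4 of the earlier window. Scaled by these controls, 47 genes were still lower with a median of -4.06, while the median of all genes moved to -0.63 and the share of all genes called lower to 67.0%. Leaving out any 1 of the 8 samples kept 47 called, with medians between -3.53 and -2.82.

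A gene took a median of 28.99° to pass from 80% to 20% of its log2 span, which is 9.30 min (6.74 to 13.2 min over the 47 genes). The steepest step between 2 samples began at 71.7° for 20 genes and at 84.2° for 20. Only IPI1 and NOP53 had it from 59.2°, and 5 genes had it from 96.6°.

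Within this shared fall the midpoints differed between genes, but an order over all 47 genes was not tested. The midpoint of the fall had a median of 83.3° over the 47 genes, with an SD of 6.5°, which is under the sample spacing. The extremes, 67.3° for IPI1 and 98.8° for NUG1, lay further apart than that spacing. NOP53 was the second earliest at 71.2°, and NOP2, the ribosomal RNA methyltransferase, the second latest at 96.9°. IPI1 had a signal of 2931 at 34.3°, 871 at 71.7° and 504.4 at 84.2°. NUG1 (YER006W), a GTPase of the nuclear particle, still had 5074 at 71.7° and 3244 at 84.2°, and reached 523 at 134.03°. The 84.2° sample therefore caught IPI1 at 10.5% of its log2 span, NOP53 at 21.7%, NUG1 at 72.6% and NOP2 at 74.1%.

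IPI1 was the earliest and NUG1 the latest of the 47 under each of the 3 other scalings and 2 other pseudocounts. The 5 latest genes were the same 5 in each, whereas 4 of the 5 earliest were shared under each other scaling and 5 under each pseudocount. With poly-A scaling IPI1 lay at 78.2° and NUG1 at 98.5°, a narrower gap. Of the 10 complexes and families compared, the RIX1 complex was the most spread, with IPI1 at 67.3°, IPI3 at 76.6° and RIX1 at 91.7°. BRX1 at 93.0° and EBP2 at 81.0° were also apart, but by less than the sample spacing. The SSF1 module lay close together, with SSF1 at 78.5°, RRP14 at 77.4° and RRP15 at 78.4°. So did RPF2 at 86.2° and RRS1 at 84.6°. These examples were chosen after their values were seen. The midpoints have no error of their own, because each phase was sampled once. The midpoint was only loosely related to the size of the swing, with a Spearman's rho of 0.33 over the 47 genes, which share arrays and cycle.

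**Figure D3:**
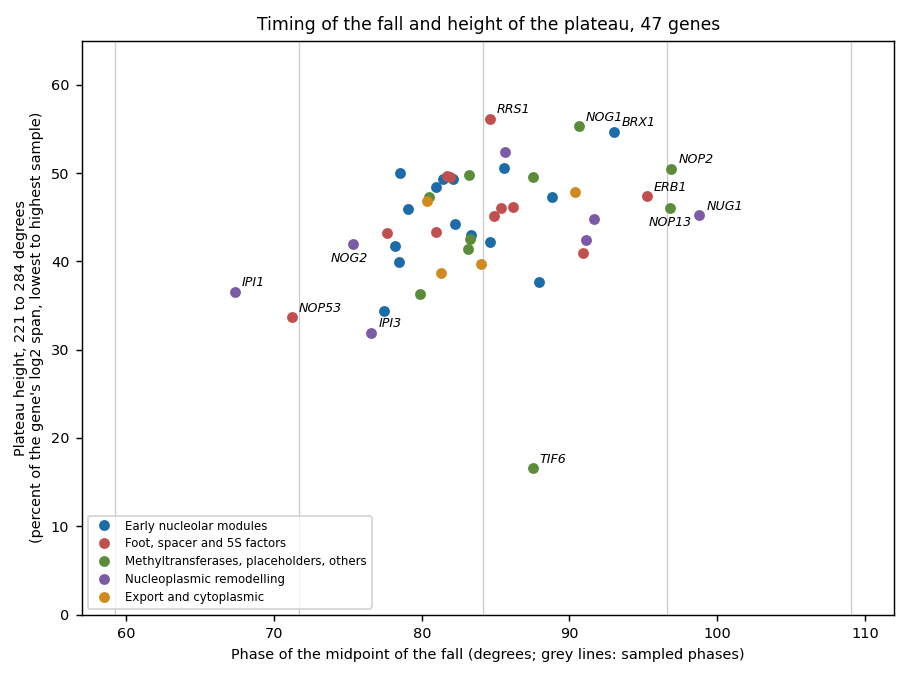
Phase of the midpoint of the fall in degrees (x axis) and height of the plateau from 221.3° to 283.6° as percent of the gene's own log2 span (y axis) for the 47 genes, coloured by role; grey vertical lines are sampled phases. IPI1 (67.3°) and NOP53 (71.2°) lie at the left, NUG1 (98.8°) and NOP2 (96.9°) at the right, and TIF6 far below the others at 16.6%.

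After the minimum the transcripts came back in 2 stages. The first recovery, from the lowest level to the plateau, had a median of 1.94 on the log2 scale, and the second rise, from the plateau to the end of the series, a median of 2.19. The plateau stood highest for RRS1, at 56.2% of its span, and NOG1, at 55.3%, and lowest for TIF6 at 16.6%, with IPI3 next at 31.9%. Because the plateau lay near the middle of most genes' spans, the phase at which a gene rose through its midpoint ranged widely, from 198° for RRS1 and 203° for NOG1 to 327° for LOC1 and 349.8° for TIF6. The median of 293.8° moved to 240.6° in the deposited values and to 311.1° with poly-A scaling, so this phase is less certain than that of the fall.

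The start of the next cycle was tested as the 4 samples from 345.97° to 23.8° against the 4 before them, from 296.1° to 333.5°. All 47 genes rose by limma (adjusted p from 0.000867 to 0.0157), as did 28.1% of all genes. This test also took consecutive samples as a group and was not whitened. The median log2 difference was 1.24, from 0.61 ± 0.12 for TIF6 to 1.71 ± 0.44 for RIX1, against -0.02 for all genes. Leaving out the sample at 296.1° left 46 called and leaving out each of the other 7 left 47.

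The last 3 samples repeated the phases of the first 3, with angles 1.57° to 1.93° further on. Limma called 0 of 47 genes between them, and 0 at an unadjusted p under 0.05 (adjusted p from 0.467 to 0.982). Over all genes 1 was called (0.0186%), and 14% had an unadjusted p under 0.05, with 7.18% higher and 6.83% lower. The log2 differences of the 47 genes, last minus first, had a median of 0.21 and ran from -0.05 for TIF6 to 0.52 for SDA1, with 46 of 47 above 0 and standard errors of 0.13 to 0.36. Leaving out 1 sample left phases unmatched on the rise, which moved the median. It was 0.02 without the sample at 356.9° and 0.07 without the last sample at 23.8°. Without the one at 358.4° it was 0.33, and without the one at 21.8° it was 0.40. At matched phases the mean profile of the 47 genes was 1.04 at 356.9° and 1.31 at 358.4°. It was 1.41 at 9.35° and 1.67 at 11.09°, then 1.79 at 21.8° and 1.85 at 23.8°. With the matched phase as a block, the same differences were called for 13 genes, all higher in the last 3 samples, where 25.2% of all genes were called and 13.3% were called higher. SDA1 (0.52 ± 0.12, limma adjusted p = 0.0379), NUG1 (0.38 ± 0.05, adjusted p = 0.016), NMD3, RIX7, IPI1 and NOP7 were among the 13. The sign depended on the scaling. The median was -0.14 in the deposited values, where that of all genes was -0.44. There 0 of the 47 genes were called, against 2393 of 5378 genes tested. With poly-A scaling the median was -0.33, where that of all genes was -0.62. There 2 of the 47 genes were called, both lower, against 3999 of 5378 genes tested.

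**Figure D4:**
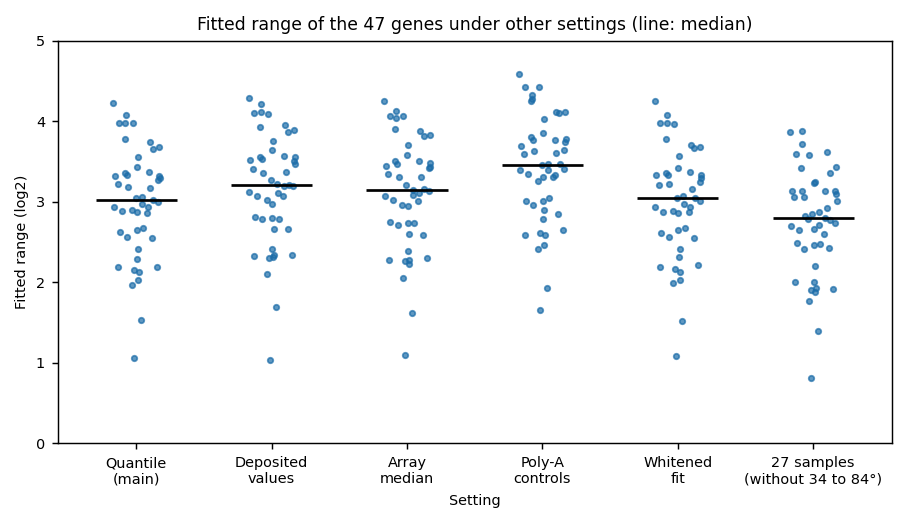
Fitted range on the log2 scale (y axis) of the 47 genes (points) under 6 settings (x axis), with the median as a black line; horizontal scatter only separates the points. The median was 3.03 with quantile scaling and 3.45 with poly-A scaling, and the lowest point in each setting is TIF6.

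Of the assembly factors, 3 resemble a ribosomal protein whose place they hold or whose fold they share, and these pairs were set side by side. RLP24 (YLR009W), which occupies the site of RPL24 until the cytoplasm, had a range of 3.03 ± 0.37, a lowest signal of 432 and a highest of 8669. The ribosomal protein genes RPL24A and RPL24B had ranges of 0.48 ± 0.05 and 0.41 ± 0.06. MRT4 (YKL009W), which holds the site of RPP0, had 3.32 ± 0.41 with signals from 429 to 11305, whereas RPP0 had 0.11 ± 0.03. RLP7 (YNL002C) had 2.67 ± 0.31, against 0.14 ± 0.04 for RPL7A, whose probe set can match several genes. In the window from 96.6° to 134.03° the assembly factors were lower by log2 differences of -3.23, -3.44 and -2.82 for RLP24, MRT4 and RLP7. RPL24A, RPL24B and RPL7A were lower by -0.23, -0.41 and -0.12, and RPP0 had a difference of 0.05 that limma did not call (adjusted p = 0.273). RPL7A and RPP0 lost the phase call after whitening (adjusted p = 0.32 and 0.418). The differences within pairs were not themselves tested.

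Ribosomal protein probe sets were bright, which bears on these comparisons. Of 75 large-subunit ribosomal protein genes, 58 had a median signal above 10000, where the top of the scale was 22905; the highest median of the 47 factors was 3992. The part of this in the smaller ranges was not tested. The 75 ribosomal protein genes had a median range of 0.49, and 8 reached 2-fold (29.6% of all genes). In the window after the fall 63 were lower (34.7% of all genes) and 2 higher (2243 of 5377 genes tested).

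**Figure D5:**
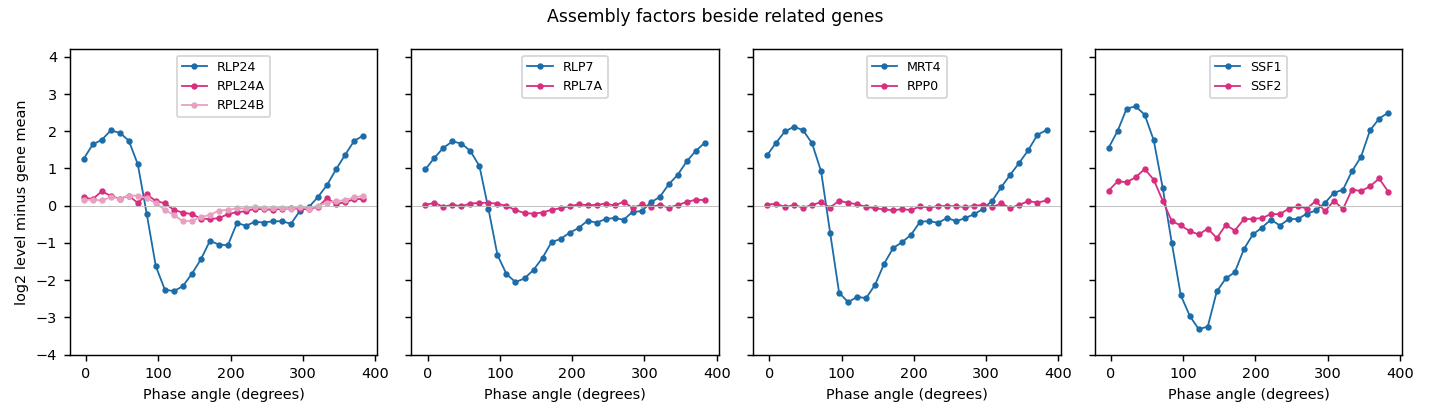
Log2 level minus the gene's mean (y axis) against phase angle in degrees (x axis) in the 32 samples for RLP24, RLP7, MRT4 and SSF1 (blue) and for related genes (pink). The blue profiles drop by several log2 units between 60° and 109°, while RPL24A, RPL24B, RPL7A and RPP0 stay near 0 and SSF2 (range 1.17) lies between.

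A further 29 large-subunit factors outside the 47, listed from their known roles, were read out beside them. Limma called 29 of 29 for phase (91.3% of all genes) and 27 after whitening (67.6% of all genes). A called range of at least 2-fold was found for 27 (29.6% of all genes). After the fall 27 were lower (34.7% of all genes), and 27 were higher at the start of the next cycle (28.1% of all genes). Their median range was 2.10. The largest were RSA4 (4.25 ± 0.49), a particle-bound substrate of the giant ATPase MDN1, SYO1 (3.81 ± 0.41), the import chaperone of the 5S-binding ribosomal proteins, and the methyltransferase SPB1 (3.63 ± 0.45). The smallest were REH1 (0.08 ± 0.03), a cytoplasmic factor with a peak at 206°, RSA1 (0.48 ± 0.13) and SSF2 (1.17 ± 0.14), the close relative of SSF1. REH1 and RSA1 lost the call on whitening (limma adjusted p = 0.552 and 0.221). Chosen after its values were seen, MDN1 itself had a range of 2.10 ± 0.21 with the midpoint of its fall at 129°, later than in any of the 47 genes.

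The small-subunit processome, which assembles the other subunit of the ribosome in the same nucleolus, was read out in the same way. All 34 of its genes were called for phase (91.3% of all genes), with a median range of 2.83. All 34 were lower after the fall (34.7% of all genes) and higher at the start of the next cycle (28.1% of all genes). The median midpoint of the fall was 80.6°, against 83.3° for the 47 large-subunit factors, a gap below the sample spacing.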

How the data were processed

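Total RNA of 32 samples of 1 culture was hybridised, as 5 µg of labelled cRNA, to 1 Affymetrix Yeast Genome 2.0 array per sample. The authors deposited probe set intensities on a linear scale. GCOS is named in the submitters' processing notes, and the sources used here do not state its version, algorithm or scaling. Of 10928 probe sets, 5498 named S. cerevisiae genes. A further 1747 named S. pombe genes or genes not matched to S. cerevisiae, and are called S. pombe probe sets here. Genes were named from the annotation of the array and the RefSeq R64 table, which served only for names and gene order, since no build of the array is stated in the sources used here.

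A pseudocount of 1.9 (the 10th percentile of the table) was added to the intensities before log2, and arrays were quantile normalized because their medians spanned 0.70. The brightest probe set stood for each gene. The filter was a mean above 4.44, the 95th percentile of S. pombe probe sets, which each of the 47 genes exceeded even in its lowest sample. Signals given in the text are normalized values in array units.

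In R 4.3.3, limma 3.58.1 fitted the cosine and sine of phase (moderated F test), 2 harmonics, 8 windows of 4 consecutive samples, and the last against the first 3 samples, with Benjamini-Hochberg adjustment over 5377 genes and a threshold of 0.05. Only the fits of phase were whitened. Midpoints and plateaus are descriptions. The 1-harmonic phase test and the window test were tried on simulated data, with independent noise or with autocorrelated noise at the uncorrected coefficient of 0.659. The 2-harmonic fit and the test of the last against the first 3 samples were not tried in this way. The outcomes are not given here. The 47 members, the lists and the tests were chosen with earlier results of these data known. In full, the text names the 3 largest and the smallest range in each role, the earliest and latest midpoints, the related ribosomal protein genes, and the extremes of the other large-subunit factors; remaining members are named with single values. Other scalings, pseudocounts, filters, probe set rules, covariates, whitening, subsets of samples and a block by matched phase were tried. No promoter or protein sequences were used here.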

Additional observations from a re-analysis of the deposited data

How the results depend on the processing

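Every one of the 47 genes kept its phase call and direction under the other scalings, pseudocounts of 1 and 16, no filter or a stricter one, added linear time or running number, odd or even time points, without the last 3 samples, whitening with a coefficient of 0.659, and 2 harmonics. Whitening with the corrected coefficient, added after seeing the data, lowered the count to 8 of 47 (322 of all genes in place of 4910). That coefficient, 0.98, was the upper end of the values tried. With 2 harmonics, also added later, the count was 47. The mean of probe sets could not change a member, as each has 1 probe set. The median range was 3.45 with poly-A scaling in place of 3.03. The median midpoint of the rise was 240.6° in the deposited values and 311.1° with poly-A scaling, in place of 293.8°. Between the last and first 3 samples, 2 genes were called with poly-A scaling, both lower, and 13 with matched phase as a replicate block, all higher, in place of 0; the counts over all genes were 3999, 1353 and 1, and 2393 in the deposited values. Leaving out 1 sample at a time gave 47 to 47 genes lower at the fall, 46 to 47 higher at the next rise, and 0 to 0 between the ends. There the omission left phases unmatched, and the median difference moved between 0.02 and 0.40. The deposited values called 12.3% of all genes higher at the next rise in place of 28.1%. The causes were not tested. Leaving out the 5 arrays of low control signal kept 47 calls with ranges from 0.82 to 3.88, the largest then being that of SSF1 and not RIX1; the fall could not be compared without them, since they hold the whole earlier window.

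The design limits all of this: 1 culture, 1 cycle, 1 array per phase, and a phase resolution of 12.5°. Levels are relative within each array, and the lowest samples of SSF1 and MAK16 lay only 1.35 above the background threshold on the log2 scale.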

Other observations

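Genes next to the 47 on the chromosomes were also read out, from the gene order of the RefSeq R64 table. Of 90 neighbouring genes with a measurement, 17 (18.9%) had a called range of at least 2-fold with a peak within 45° of 0°. The share of all genes tested, the 47 included, was 12.1%. The share was 6 of 21 for divergent neighbours, which start from a shared upstream region, 7 of 44 for tandem and 4 of 25 for convergent ones. None of the 90 neighbours was itself one of the 47 genes, and the difference from the share of all genes was not tested.

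Among the divergent neighbours were FSF1, beside YTM1 (range 1.29, r of 0.992), IRC19 beside RIX7 (1.30, r of 0.906), LCP5, a processome gene beside NSA2 (3.01, Pearson's r of 0.972 between the 2 profiles), the helicase gene RRP3 beside SSF1 (2.23, r of 0.963), PUS1, a pseudouridine synthase gene beside NIP7 (2.83, r of 0.965), and GCD10, a transfer RNA methyltransferase subunit gene beside NOP2 (2.57, r of 0.952). Convergent neighbours were GAR1 beside RPF1 (2.86, r of 0.975), NOC4 beside RRP15 (3.0, r of 0.975), RET1 beside NOC2 (2.03, r of 0.957) and GRC3 beside RIX7 (1.46, r of 0.924). The tandem neighbours were UTP9 beside RIX1 (3.11, r of 0.928), ESF2 beside NOG2 (2.32, r of 0.958), DBP8 beside NMD3 (2.13, r of 0.925), MNN1 beside NOP16 (1.6, r of 0.924), CMS1 beside NOC3 (1.48, r of 0.993), DEG1 beside LOC1 (1.28, r of 0.871) and STE12 beside IPI1 (1.03, r of 0.681). These are all 17, they were singled out after their values were seen, and each r describes profiles over the same 32 arrays. Neighbours that missed the cut on range or on peak are not listed. Some of them shared the phase with a range under 2-fold, such as the divergent neighbours NUP133 beside RPF2 (0.88, r of 0.973) and DOM34 beside RLP7 (0.87, r of 0.926). Others had another phase, such as RTC3 beside RPF1 (range 3.72, peak at 207°, r of -0.91) and AIM18 beside RIX1 (1.66, peak at 189°, r of -0.977).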
